A study of Mus musculus with 6 samples.

Results

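The 10 genes described here encode chemokines that attract monocytes, neutrophils and other leukocytes. They are Ccl2, Ccl5, Ccl7, Ccl20, Cxcl1, Cxcl2, Cxcl5, Cxcl12, Cxcl16 and Cx3cl1, taken by gene name and Ensembl ID from the 55536 genes listed in each library. RNA was sequenced from SVEC4-10, an immortalised line of mouse cells that carries an endothelial label and was grown with fetal bovine serum. The nattokinase group (3 libraries) received nattokinase for 24 hours, a serine protease of Bacillus subtilis from fermented soybean that degrades fibrin. The control group (3 libraries), also labelled 24 hours, was left untreated. The sources used here state no nattokinase dose, and all libraries come from this single line. Whether the replicates are separate cultures is not labelled, so p-values reflect the spread among these libraries alone, and that spread may be technical. The comparison asks which chemokine transcripts differ after the exposure.

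Chemokines are small secreted or membrane-anchored proteins that bind G-protein-coupled receptors on leukocytes and steer their migration. They are grouped by the spacing of their first cysteines into the CC, CXC and CX3C classes. Vessel wall and stromal cells present them to passing leukocytes on heparan sulphate chains. Many inflammatory chemokine genes are targets of NF-kB, and their mRNAs are often short-lived, whereas Cxcl12 is made constitutively by stromal cells and acts in the homing of blood progenitors and lymphocytes.

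The class-defining spacing is shown for the coding sequences of the 6 chemokines that could be tested. The members called with nattokinase fall in the CC and CX3C classes. Only Cxcl12 and Cxcl1 of the CXC class could be tested, and Ccl5 of the CC class was not called, so no class pattern can be read from this. Each line is a stretch of 60 bases of the coding strand from the GENCODE M21 transcript with the longest coding sequence, and capitals mark the first pair of cysteine codons, beyond the start of the signal peptide, that has the spacing searched for its class.
Ccl2: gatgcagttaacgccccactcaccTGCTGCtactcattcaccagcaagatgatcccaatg
Ccl7: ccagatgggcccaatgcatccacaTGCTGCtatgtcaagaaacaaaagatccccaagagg
Ccl5: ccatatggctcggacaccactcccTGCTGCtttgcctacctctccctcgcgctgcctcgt
Cxcl12: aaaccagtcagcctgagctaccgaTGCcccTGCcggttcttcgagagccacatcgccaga
Cxcl1: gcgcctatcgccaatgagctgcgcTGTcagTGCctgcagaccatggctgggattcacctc
Cx3cl1: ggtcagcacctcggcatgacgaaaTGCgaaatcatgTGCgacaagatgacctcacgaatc
The cysteine codons are adjacent in Ccl2, Ccl7 and Ccl5, have a single codon between them in Cxcl12 and Cxcl1, and are further apart in Cx3cl1.

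Values were deposited as FPKM, the reads of a gene per kilobase of its exons and scaled to the reads of the library. The length counts all annotated exons of a gene, 8176 bases for Cxcl12 and 801 for Ccl7. Comparisons of level between genes therefore depend on this annotation. The reads recovered from these values ranged from 17525090 to 18341370 in the nattokinase libraries and from 15044778 to 16496433 in the control libraries. Protein-coding genes took 98.3% to 98.4% of the reads in the nattokinase libraries and 95.4% to 96.7% in the control libraries. The part of this difference in the results was not tested beyond a rescaling to protein-coding totals. The FPKM of all genes summed to 291720 to 295804 in nattokinase libraries and 347651 to 373893 in control libraries. Levels as shares of these sums were not tested. Of 12 endothelial markers, 0 reached 1 FPKM in any library. Pecam1 had at most 3 reads and Cdh5 at most 1. The lymphatic endothelial list was split: of its 4 markers Prox1 and Lyve1 had 0 reads in all libraries, while Flt4 was at 10.7 ± 0.074 FPKM in nattokinase cells and 11.2 ± 0.63 FPKM in controls, without a call. Pdpn, which fibroblasts also express, fell to 102 ± 2.66 FPKM with nattokinase, against 119 ± 5.96 FPKM in controls (limma adjusted p = 0.027). The endothelial label is thus met by Flt4 and, with the limit given, Pdpn, and not by Prox1, Lyve1 or the defining endothelial markers. Of 9 fibroblast and mural cell markers 5 passed the filter on low values (Col1a1, Col1a2, Dcn, Pdgfra and Pdgfrb), and the other 4 were at or near 0, with 0 reads for Thy1 and at most 3 for Rgs5, 3 for Cspg4 and 10 for Lum. The summed level of this fibroblast and mural list was 1753 to 1826 FPKM in nattokinase libraries and 1923 to 2069 FPKM in control libraries. Nearly all of it came from Col1a1 and Col1a2. Of the 5 tested markers 0 were called. Col1a1 was at 1236 FPKM with nattokinase and 1403 FPKM in controls (limma adjusted p = 0.084), and Col1a2 and Dcn overlapped. Pdgfra and Pdgfrb were higher in every nattokinase library than in any control. Of 10 leukocyte markers 5, among them Ptprc, Itgam and Adgre1, had 0 reads in all 6 libraries. The summed level of the leukocyte list was 8.34 to 8.44 FPKM in nattokinase libraries and 6.20 to 7.65 FPKM in control libraries, nearly all from Cd14 and Cd68. Cd68, which also marks lysosomes, rose 2.03-fold to 2.42 ± 0.35 FPKM in nattokinase cells, against 1.19 ± 0.33 FPKM in controls (SD, n = 3 each; limma adjusted p = 0.0094). The Cd68 values rest on 45 to 63 reads per nattokinase library and 16 to 31 per control library. Its call held in 11 of the 13 alternative settings that tested it. In bulk RNA, more cells that make a transcript and more transcript per cell cannot be told apart.

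Nattokinase-treated cells held about double the mRNA of the monocyte chemokines Ccl2 and Ccl7 and a smaller excess of Cx3cl1, while the abundant Cxcl12 and the neutrophil chemokine Cxcl1 had overlapping values in both groups. Of the 10 genes, 6 passed the filter of at least 1 FPKM in at least 3 libraries, and 3 of these 6 rose at a limma adjusted p under 0.05. Among all 10913 genes tested, 5.61% rose at that threshold and 3.24% fell, 8.85% in either direction. No chemokine was called lower, with 0 of 6 by limma, 0 at an unadjusted p under 0.05 and 0 by limma-voom. The median log2 fold change of the 6 tested chemokines was 0.30, beside 0.01 over all tested genes. The chemokines and the gene lists below were chosen with earlier results of these data known. Their shares and medians beside all tested genes therefore describe these genes only. With libraries scaled by their protein-coding totals, 478 genes rose and 497 fell over the transcriptome, against 612 and 354 with values as deposited, and the same 3 chemokine genes were called.

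**Figure D1:**
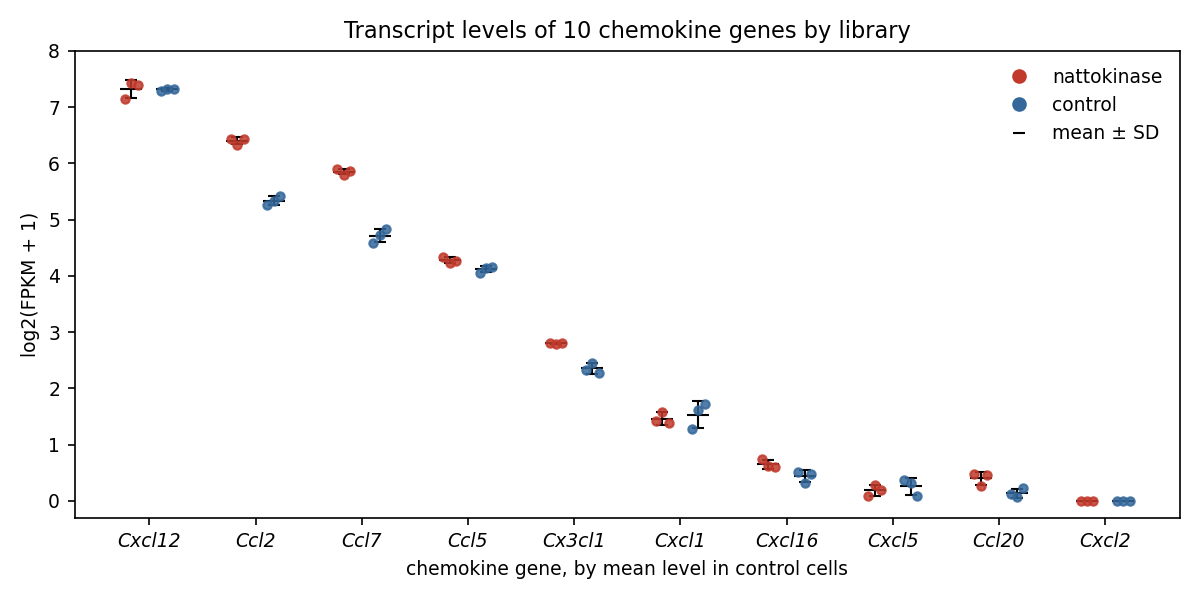
Level of each of the 10 chemokine genes, as log2(FPKM + 1), in the 3 nattokinase libraries (red, left) and the 3 control libraries (blue, right), with the mean and SD of each group. Ccl2, Ccl7 and Cx3cl1 are separated between the groups, Cxcl12 and Cxcl1 overlap, and Cxcl2 is at 0 throughout.

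The monocyte chemokines came first among the changes. Ccl2 (ENSMUSG00000035385; chromosome 11, 82035571 to 82037453, plus strand, GRCm38) encodes a ligand of the receptor CCR2 that draws monocytes out of the blood. Its level was 85.8, 79.4 and 84.99 FPKM in the nattokinase libraries, against 37.1, 39.2 and 41.7 FPKM in the control libraries. Every nattokinase library lay far above every control, and the gap between the groups was many times their spread. The means were 83.4 ± 3.52 FPKM with nattokinase and 39.3 ± 2.26 FPKM in controls (SD, n = 3 each), a 2.12-fold ratio. On the log2(FPKM + 1) scale the fold change was 1.07 (SE 0.055, 95% interval 0.94 to 1.19; limma adjusted p = 7.8e-06). These values rest on 1583 to 1774 reads per nattokinase library and 671 to 782 reads per control library.

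Ccl7 (ENSMUSG00000035373; chromosome 11, 82045712 to 82047525, plus strand) also encodes a CCR2 ligand and lies 8.26 kb downstream of Ccl2. It had 58.4, 54.6 and 57.0 FPKM in the nattokinase libraries, against 23.0, 25.6 and 27.5 FPKM in the control libraries. The groups did not overlap. Its mean was 56.7 ± 1.91 FPKM with nattokinase and 25.4 ± 2.23 FPKM in controls, a 2.24-fold ratio with a log2 fold change of 1.13 (SE 0.063, 95% interval 0.99 to 1.27; limma adjusted p = 8.8e-06). Ccl2 and Ccl7 were the only members past a test against a 1.5-fold change (limma treat adjusted p = 0.0039 each), a threshold that 0.11% of all tested genes passed upwards and 0.0458% downwards.

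The pair kept nearly the same proportion to each other in every library. The ratio of Ccl7 to Ccl2 FPKM was 0.681, 0.688 and 0.671 in nattokinase libraries, against 0.620, 0.652 and 0.659 in control libraries. All nattokinase ratios were above all control ratios, by a small margin. They rest on 767 to 844 Ccl7 reads per nattokinase library and 299 to 363 per control library. The margin was not tested against the counting error of such reads. The difference of the means was 0.036, and an exact two-sided permutation test gave p = 0.10, the smallest value that 3 against 3 libraries allow. This ratio does not depend on library scaling. The transcripts of Ccl2 and Ccl7 share no run of identical bases longer than 23, so reads longer than this that match exactly cannot belong to both.

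Ccl5 (ENSMUSG00000035042; chromosome 11, 83525778 to 83530518, minus strand), which attracts T cells and monocytes, differed much less. It had 19.3, 17.8 and 18.1 FPKM in nattokinase libraries, against 15.6, 16.5 and 16.9 FPKM in control libraries. The nattokinase values were all higher, but the adjusted test did not call the gene. The means were 18.4 ± 0.77 and 16.3 ± 0.65 FPKM in nattokinase and control cells, with a log2 fold change of 0.16 (SE 0.051, 95% interval 0.05 to 0.28; limma adjusted p = 0.084, unadjusted p = 0.010). Its interval lies wholly below that of Ccl2. Within each library Ccl2 stood 4.45 to 4.69 times above Ccl5 with nattokinase and 2.37 to 2.47 times above it in controls.

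Ccl20 (ENSMUSG00000026166; chromosome 1, 83116766 to 83119167), the ligand of CCR6, which guides dendritic cells and some lymphocytes, had very little mRNA. It had 10, 5 and 10 reads in nattokinase libraries (0.390, 0.201 and 0.384 FPKM), against 2, 1 and 4 reads in control libraries (0.087, 0.047 and 0.171 FPKM). The groups did not overlap, yet the counts are too low for the main test. Without the filter limma gave an adjusted p of 0.32, in a fit that called 0.9% of 24549 genes higher. Limma-voom on the recovered reads, an alternative chosen after seeing the data, gave 0.20 and called 3.67% of genes higher and 5.93% in either direction.

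The chemokines with a membrane anchor were at low to moderate level. Cx3cl1 (ENSMUSG00000031778; chromosome 8, 94772009 to 94782427, plus strand) encodes fractalkine, an adhesion molecule for CX3CR1-bearing monocytes when anchored and a chemoattractant when shed. It had 6.02, 5.91 and 5.97 FPKM in nattokinase libraries, against 4.03, 4.48 and 3.84 FPKM in control libraries. The nattokinase libraries agreed closely and all lay above the controls. The gene rose 1.45-fold, with means of 5.97 ± 0.057 FPKM in nattokinase cells and 4.12 ± 0.33 FPKM in controls and a log2 fold change of 0.45 (SE 0.063, 95% interval 0.31 to 0.59; limma adjusted p = 0.0021). Its call was lost in the test against a 1.5-fold change.

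Cxcl16 (ENSMUSG00000018920; chromosome 11, 70453983 to 70459984, minus strand), the other transmembrane chemokine and a ligand of CXCR6, stayed under the filter. It had 37, 28 and 29 reads in nattokinase libraries (0.679, 0.529 and 0.523 FPKM), against 21, 11 and 20 reads in control libraries (0.429, 0.242 and 0.401 FPKM). The groups did not overlap. The adjusted p was 0.44 without the filter and 0.32 by limma-voom on recovered reads, so no difference was called. Of its 3021 exon bases, 552 overlap the antisense gene Zmynd15, and without stated use of strand the reads of the pair cannot be told apart there.

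The CXC chemokines showed no called difference. Cxcl12 (ENSMUSG00000061353; chromosome 6, 117168535 to 117181367, plus strand), the CXCR4 ligand of stromal cells, had the highest level of the 10 genes in both groups. It had 140, 170 and 168 FPKM in nattokinase libraries, against 155, 160 and 160 FPKM in control libraries. Nattokinase replicate 1 was the lowest of the 6 and the other nattokinase libraries the highest, so the groups overlapped. The log2 fold change was 0.01 (SE 0.071, 95% interval −0.15 to 0.17; limma adjusted p = 0.97), and its sign turned negative under protein-coding totals (−0.03) and median-of-ratios scaling (−0.004). Between 20705 and 25138 reads per nattokinase library and 19654 to 21516 per control library stood behind these values, so counting error was small beside the spread.

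Cxcl1 (ENSMUSG00000029380; chromosome 5, 90891241 to 90893115, plus strand), a neutrophil attractant acting on CXCR2, had 1.69, 2.01 and 1.599 FPKM in nattokinase libraries, against 1.41, 2.06 and 2.30 FPKM in control libraries. The control values spanned the nattokinase values. The log2 fold change was −0.07 (SE 0.118, 95% interval −0.33 to 0.19; limma adjusted p = 0.78). It was 0.02 without control replicate 3.

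The other CXCR2 ligands were scarce. Cxcl5 (chromosome 5, 90759360 to 90761624) had 2, 7 and 5 reads in nattokinase libraries, against 9, 7 and 2 reads in control libraries, and the groups overlapped. Cxcl2 (chromosome 5, 90903871 to 90905938) was at 0 reads in each of the 6 libraries. A count of 0 allows up to 3 reads, or 0.0791 to 0.0964 FPKM per library, for counting error only. Its transcripts share a run of 157 identical bases with those of Cxcl3, which also had 0 reads, and the sources used here do not say how reads matching several genes were counted. In contrast, Cxcl1 and Cxcl2 share at most 23 bases.

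**Figure D2:**
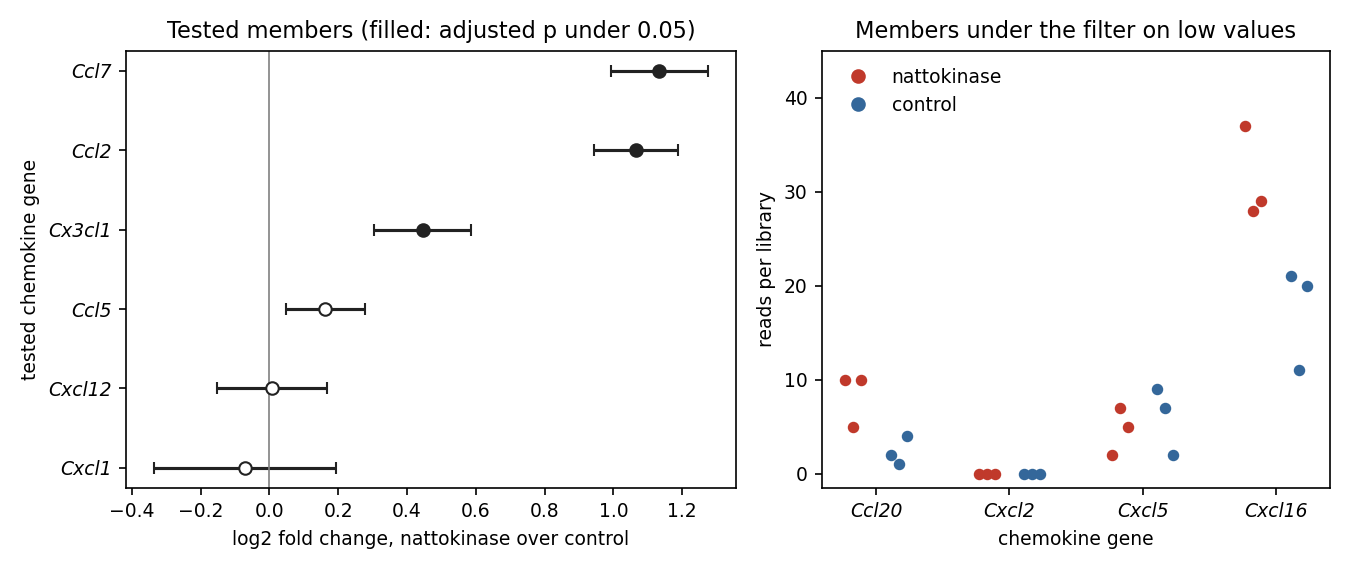
Left, log2 fold change of nattokinase over control on the log2(FPKM + 1) scale with 95% interval for the 6 tested chemokines, filled where the limma adjusted p is under 0.05. Right, reads per library of the 4 members under the filter, with nattokinase libraries in red and control libraries in blue: Cxcl16 has 28 to 37 reads with nattokinase and 11 to 21 in controls.

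Among the 10 genes, 6 had all nattokinase libraries above all controls and 0 had all below. Over all genes with a read in any library, 9.39% were separated upwards in this way and 7.96% downwards. Of the 6 tested chemokines 4 were separated upwards, beside 17.4% of all tested genes. With so few members this count describes these genes and no more.

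The order of levels was the same in both groups for the 7 highest genes, from Cxcl12 through Ccl2, Ccl7, Ccl5, Cx3cl1 and Cxcl1 to Cxcl16. Neighbours among the first 6 did not overlap within either group. Below Cxcl1, Ccl20 and Cxcl5 overlapped in nattokinase libraries, and Cxcl16 overlapped Cxcl5, and Cxcl5 overlapped Ccl20, in control libraries. The summed level of the 10 genes was 313, 331 and 336 FPKM in nattokinase libraries, against 237, 248 and 252 FPKM in control libraries. Most of this difference came from Ccl2 and Ccl7, whose sum was 140 ± 5.39 FPKM with nattokinase and 64.7 ± 4.48 FPKM in controls.

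Cxcl12 therefore made up a smaller part of the chemokine transcripts in treated cells although its own level overlapped. Its share of the summed FPKM was 44.9%, 51.5% and 49.8% in nattokinase libraries, against 65.4%, 64.4% and 63.2% in control libraries. Ccl2 and Ccl7 together held 46.1%, 40.5% and 42.2% in nattokinase libraries, against 25.4%, 26.1% and 27.4% in control libraries. Neither share overlapped between the groups. Shares of a sum are tied to each other, so these are not separate results.

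**Figure D3:**
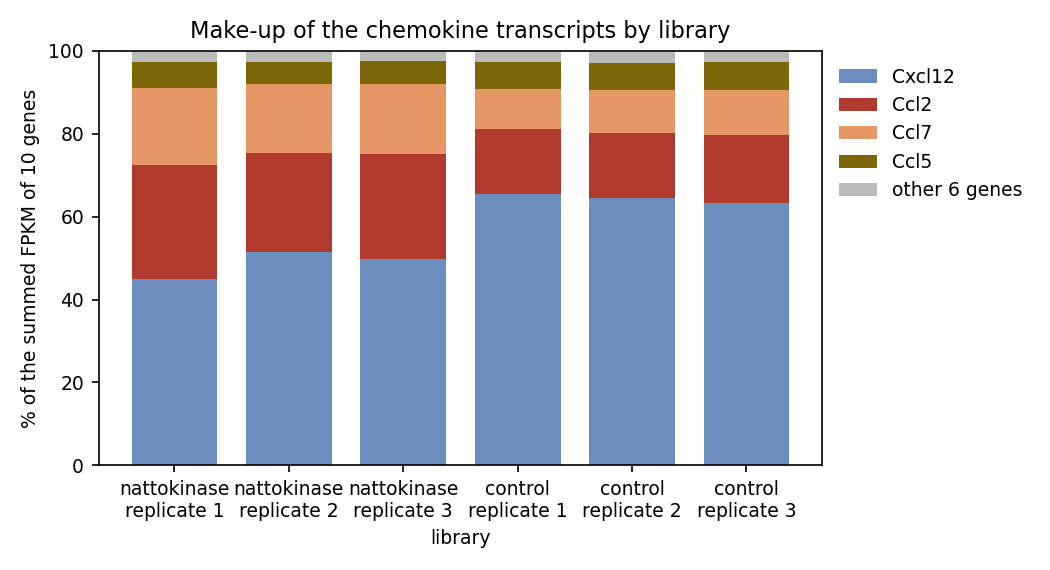
Share of each gene in the summed FPKM of the 10 chemokines, in percent, for each nattokinase library (3 bars on the left) and control library (3 bars on the right). Cxcl12 takes 44.9% to 51.5% with nattokinase and 63.2% to 65.4% in controls, and Ccl2 and Ccl7 fill most of the difference.

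Chemokine genes lie in clusters, and at most 2 genes of each cluster described here passed the filter. In the cluster of 6 CC genes on chromosome 11 that spans 270 kb, Ccl2 and Ccl7 passed it. Their neighbours Ccl11, Ccl12, Ccl8 and Ccl1 reached at most 0.121 FPKM in any library. In the cluster of 5 genes that starts with Ccl5, the other 4 genes (Ccl9, Ccl6, Ccl3 and Ccl4) reached at most 0.284 FPKM. Of the 7 CXC genes in the 147 kb cluster on chromosome 5, Cxcl1 alone passed the filter. On chromosome 8, Cx3cl1 lies between Ccl22, with 0 reads, and Ccl17, with at most 0.826 FPKM.

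**Figure D4:**
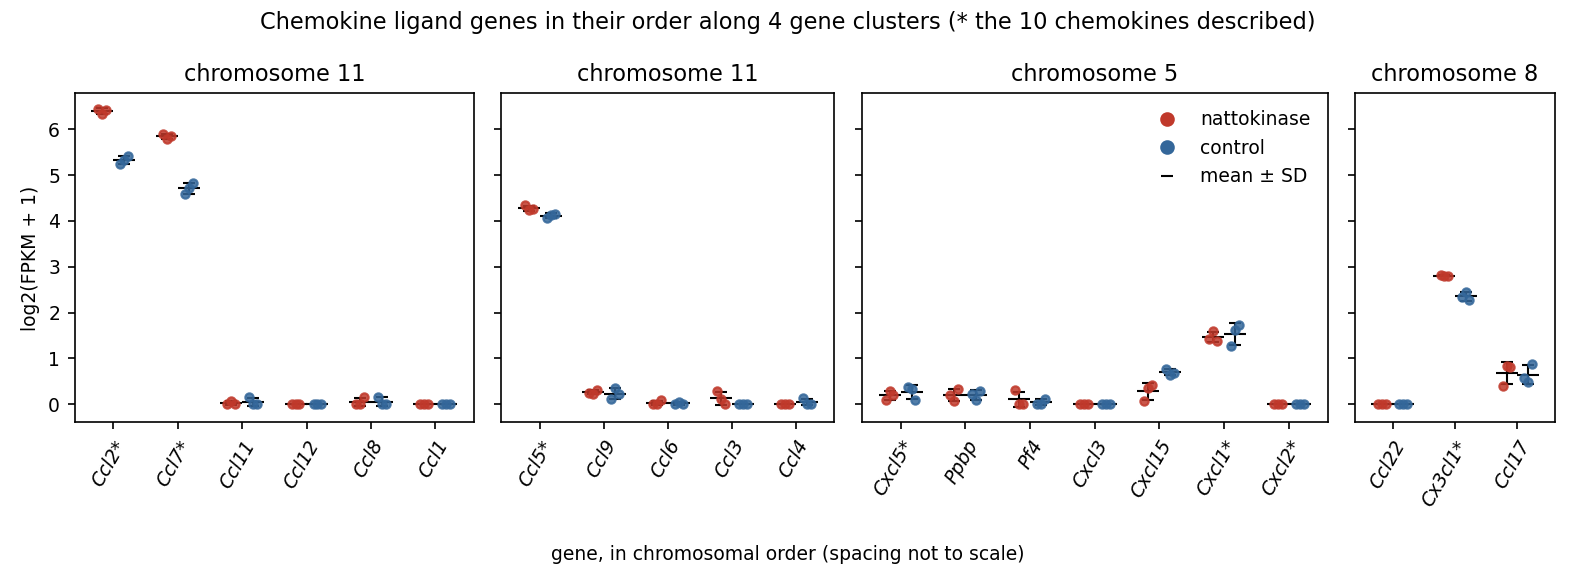
Levels, as log2(FPKM + 1), of chemokine ligand genes in chromosomal order along the 4 clusters of 3 or more genes that hold a member (asterisk), in nattokinase libraries (red, left) and control libraries (blue, right), with mean and SD. Ccl2 and Ccl7 stand at the start of their cluster, and the 4 genes after them are near 0.

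The promoters found in RefSeq (GRCm38.p6) for 5 of the 10 genes are those of Ccl20, Cxcl1, Cxcl2, Cxcl12 and Cx3cl1. Ccl2, Ccl5, Ccl7, Cxcl5 and Cxcl16 had no entry. The 3 stretches that hold a match to a kB motif (GGG, any 2 bases, then TTTCC, on either strand), the element bound by NF-kB, are shown up to the last base before the annotated start, plus strand, with matches in capitals.
Cxcl1, chr5:90891121-90891240: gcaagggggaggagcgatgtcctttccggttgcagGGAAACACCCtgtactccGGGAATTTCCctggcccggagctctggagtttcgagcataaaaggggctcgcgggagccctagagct
Cxcl2, chr5:90903751-90903870: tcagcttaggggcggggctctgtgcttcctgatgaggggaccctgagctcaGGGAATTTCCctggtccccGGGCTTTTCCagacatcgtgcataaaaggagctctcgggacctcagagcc
Ccl20, chr1:83116646-83116765: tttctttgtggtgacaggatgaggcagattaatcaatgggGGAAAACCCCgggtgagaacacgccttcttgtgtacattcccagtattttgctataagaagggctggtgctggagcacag
Cxcl1 and Cxcl2 have 2 matches each, including an identical GGGAATTTCC, and Ccl20 has 1. A match was present in 3 of the 5 chemokine windows of 250 bases before to 50 after the start, and in 1.63% of all 32851 such windows. The windows of Cxcl12 and Cx3cl1 held none of these letters. For Cx3cl1 the RefSeq start lies inside the gene as placed above. Only 79 bases of its window lie before the gene, so the sequence further upstream was not searched. An AP-1 motif (TGANTCA, either strand) was in 0 of the 5 windows and 7.81% of all, and TATAAA was in 1 of the 5, that of Cx3cl1, and 13.6% of all. That TATAAA match lies within the gene by the positions given above. No matches of different motifs overlapped. Of the 3 genes with a match, Cxcl1 could be tested and was not called, while Ccl20 and Cxcl2 were under the filter.

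Outside the 10 genes, nearly all chemokine ligands had little or no mRNA. Of 28 other ligand genes 27 stayed under 1 FPKM in every library, and 9 had 0 reads throughout. The exception was Cxcl10, an interferon-induced attractant of T cells, with 64.1, 56.6 and 58.6 FPKM in nattokinase libraries, against 61.1, 63.3 and 60.4 FPKM in control libraries. The groups overlapped, and the log2 fold change was −0.04 (SE 0.054; limma adjusted p = 0.68, 0 of 1 at an unadjusted p under 0.05, and 0 of 1 by limma-voom). No receptor could be tested: all 23 chemokine receptor genes stayed under 1 FPKM in every library, and 7 had 0 reads. Ccr2, the receptor of Ccl2 and Ccl7, was among these 7, and Cx3cr1 had at most 4 reads.

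NF-kB genes, which encode the transcription factors, kinases and inhibitors upstream of many chemokine genes, were partly higher. Of 15 tested genes of 16 listed, 4 rose and 0 fell (0 lower at an unadjusted p under 0.05, and 0 lower by limma-voom, which called 6 higher). Over all tested genes 5.61% rose and 3.24% fell. The median log2 fold change was 0.13, beside 0.01 over all tested genes. Relb, a subunit of the non-canonical pathway, had 8.09, 8.12 and 7.93 FPKM in nattokinase libraries, against 4.88, 4.94 and 5.51 FPKM in control libraries, without overlap (log2 fold change 0.57, SE 0.059; limma adjusted p = 0.00042). Nfkbie and Nfkbia encode inhibitors that hold NF-kB in the cytoplasm. Nfkbie rose 1.53-fold to 8.48 ± 0.16 FPKM with nattokinase, against 5.54 ± 0.19 FPKM in controls. Nfkbia rose 1.28-fold to 23.1 ± 0.75 FPKM, against 18.1 ± 1.34 FPKM. Nfkb2, the precursor of the partner of Relb, rose 1.23-fold to 30.03 ± 1.46 FPKM, against 24.4 ± 0.75 FPKM in controls, and 830 of its exon bases overlap antisense genes. Without the filter on low values 2 genes of this list rose, and none passed the test against a 1.5-fold change. That test uses the log2(FPKM + 1) scale, on which changes are smaller than the FPKM ratios given here.

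Genes of the signals that induce chemokines mostly showed no called difference. Of 27 cytokine, receptor and adaptor genes 21 were tested, and 2 rose and 1 fell, near the 5.61% and 3.24% over all tested genes, so the counts show nothing particular to this list. Without the filter on low values 0 rose and 0 fell, Tlr4 then having an adjusted p of 0.055. Tlr4, the lipopolysaccharide receptor, rose 1.33-fold to 3.84 ± 0.15 FPKM with nattokinase, against 2.90 ± 0.065 FPKM in controls (log2 fold change 0.31, SE 0.061; limma adjusted p = 0.012). Tnfrsf1b, a TNF receptor, fell to 11.7 ± 0.17 FPKM, against 14.1 ± 0.66 FPKM (log2 fold change −0.25; limma adjusted p = 0.013). Its call was lost without nattokinase replicate 2 (adjusted p = 0.059) or control replicate 2 (adjusted p = 0.052). Ifngr2, an interferon-gamma receptor subunit, had a log2 fold change of 0.18 (limma adjusted p = 0.044), lost without any 1 of the 6 libraries (adjusted p 0.066 to 0.15). Tnf had at most 1 read per library, and Il6 had 32 to 41 reads in nattokinase libraries and 28 to 37 reads in controls.

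Factors that govern the stability of chemokine mRNAs were tested in full, and 4 of 12 rose and 0 fell (0 lower at an unadjusted p under 0.05 and 0 lower by limma-voom). Over all tested genes 5.61% rose and 3.24% fell. Zfp36l1, which encodes a protein that binds AU-rich elements and promotes mRNA decay, rose 1.27-fold to 22.4 ± 0.48 FPKM with nattokinase, against 17.6 ± 0.89 FPKM in controls (log2 fold change 0.33, SE 0.05; limma adjusted p = 0.0030), and 1672 of its exon bases overlap an antisense gene. Zfp36, its relative tristetraprolin, had a log2 fold change of 0.23 (limma adjusted p = 0.034), lost without nattokinase replicate 2 or 3 or control replicate 1 or 3 (adjusted p 0.061 to 0.13). Mapkapk2, a kinase that phosphorylates tristetraprolin, and Hnrnpd, an AU-rich element binding protein, both had log2 fold changes of 0.17 (limma adjusted p = 0.036 and 0.047). Leaving out any library except control replicate 1 ended both calls, with adjusted p of 0.064 to 0.16 for Mapkapk2 and 0.070 to 0.20 for Hnrnpd. With protein-coding totals only 1 of these 12 genes rose, and with the filter removed 1 did.

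Among enzymes that cleave chemokines, and the proteoglycans that bind them, most genes showed no called difference. Of 6 tested proteases of 10 listed, 2 rose and 1 fell, where 5.61% and 3.24% did over all tested genes. Mmp13, a collagenase, fell to 8.61 ± 0.23 FPKM in nattokinase cells, against 12.01 ± 0.45 FPKM in controls (log2 fold change −0.44, SE 0.052; limma adjusted p = 0.00085). Mmp14, a membrane-bound metalloprotease, rose 1.23-fold to 73.5 ± 3.44 FPKM, against 59.6 ± 1.08 FPKM (log2 fold change 0.30; limma adjusted p = 0.0043). Adam17, a sheddase that releases the Cx3cl1 ectodomain, had a log2 fold change of 0.18 (limma adjusted p = 0.039). This call ended when any library except control replicate 1 was left out (adjusted p 0.098 to 0.14). Of 11 genes of heparan sulphate proteoglycans, 1 rose, 1 fell and 9 were not called, counts near those shares over all tested genes. Ext1, a heparan sulphate polymerase, rose 1.26-fold to 29.9 ± 1.01 FPKM with nattokinase, against 23.9 ± 0.097 FPKM in controls. Sdc2, the core protein syndecan-2, fell to 40.5 ± 2.25 FPKM, against 48.3 ± 0.92 FPKM, and its call was lost without nattokinase replicate 3 (adjusted p = 0.065) or control replicate 3 (adjusted p = 0.0501).

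**Figure D5:**
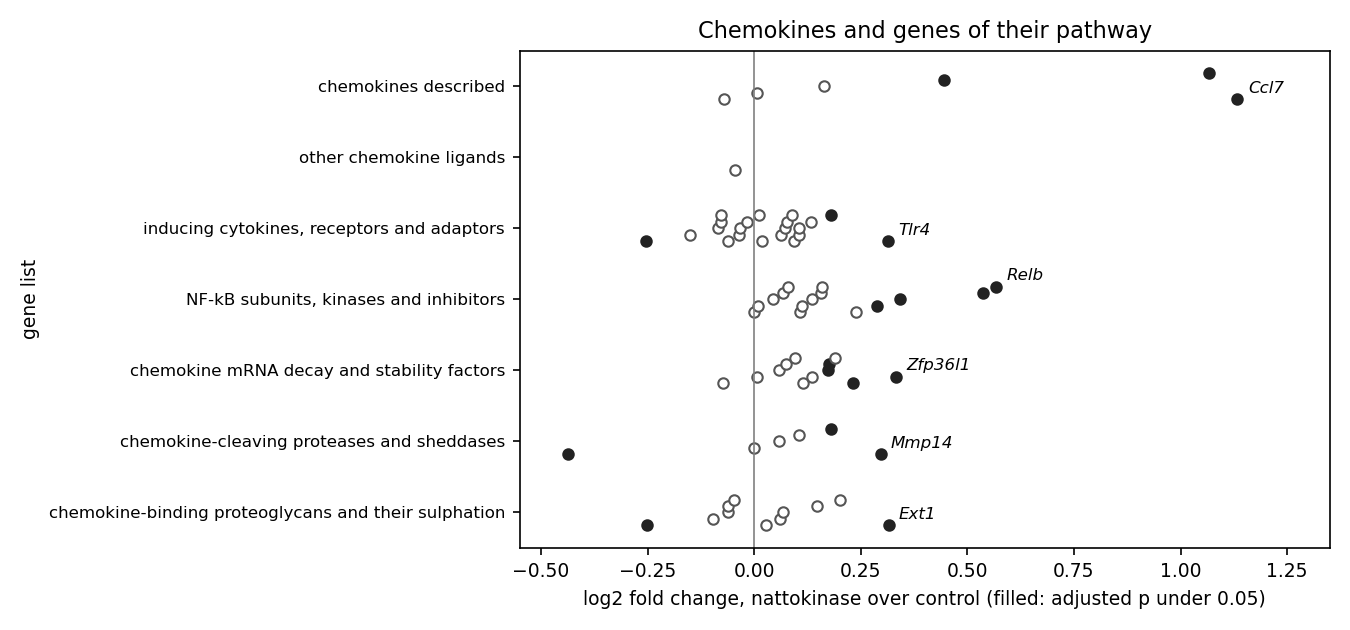
Log2 fold change of nattokinase over control on the log2(FPKM + 1) scale for the 6 tested chemokines and the tested genes of 6 related lists, filled where the limma adjusted p is under 0.05, with the highest called gene of each list named (vertical offsets only separate points). Ccl2 and Ccl7, above 1, lie beyond every gene of the other lists, where the highest is Relb at 0.57.

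The genes whose profile over the 6 libraries was nearest to that of Ccl2 were led by its neighbour Ccl7. Likeness was the root-mean-square distance between log2(FPKM + 1) profiles centred on their means, and a rule took the nearest 5 named genes. The distance was 0.044 for Ccl7, 0.067 for Acta2, which encodes smooth muscle actin, 0.067 for Spp1, which encodes osteopontin, and 0.107 for the kinase gene Sgk1. Spp1 had 172, 170 and 170 FPKM in nattokinase libraries, against 77.9, 73.6 and 79.5 FPKM in control libraries, and Sgk1 had 22.5, 24.9 and 26.2 FPKM in nattokinase libraries, against 10.998, 12.5 and 13.5 FPKM in control libraries. A short distance here mainly means a doubling of similar size between the groups.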

How the data were processed

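The data are 6 RNA-seq libraries, grouped and numbered by their titles. The authors deposited FPKM values for 55536 genes per library. Per the submitters' processing notes the tools include HISAT2 2.1.0 and featureCounts 1.6.0, besides Trimmomatic 0.38 and DESeq2 1.22.1, and no step is described, and the build named is GRCh38, although the gene IDs are from mouse. All IDs matched GENCODE M21 (GRCm38). Values multiplied by merged exon length came in equal steps within a library, and dividing by the step gave whole reads (within 0.05) for 100% of values.

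Genes that reached 1 FPKM in 3 or more libraries were tested as log2(FPKM + 1) with limma 3.58.1 in R 4.3.3 (group as the only term, trend and robust prior, two-sided, Benjamini-Hochberg adjusted over 10913 genes, threshold 0.05). Changes of low genes are understated on this scale. Folds are ratios of group means in FPKM. Every adjusted p is from limma. The script was tested on simulated libraries. Replicates of a group differed by more than counting error (mean chi-square per gene 2.43 to 10.7), so none was merged. The chemokines and gene lists were chosen with earlier results of these data known. The named genes are the 10 chemokines, the called genes of each list (all if 5 or fewer), and the 5 nearest in profile to Ccl2, of which 1 is not reported here. Cd68 and the genes named for their reads were chosen after their values were seen. Alternatives were another pseudocount, filters, scalings, limma-voom, a 1.5-fold test, a replicate block and leaving out each library. Figures were drawn with matplotlib 3.10.9.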

Additional observations from a re-analysis of the deposited data

How the results depend on the processing

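Ccl2, Ccl7 and Cx3cl1 were called under all 14 alternatives, except Cx3cl1 in the test against a 1.5-fold change (log2 fold change 0.45, adjusted p = 1.0), and 0 chemokines were called lower. Log2 fold changes ran from 1.03 to 1.11 for Ccl2, 1.07 to 1.19 for Ccl7 and 0.41 to 0.54 for Cx3cl1. Ccl5 was called under none (lowest adjusted p = 0.079). The sign of Cxcl1 turned without control replicate 3 (0.0223, range over left-out libraries −0.20 to 0.02). The sign of Cxcl12 turned with protein-coding totals (−0.0273), median-of-ratios scaling (−0.0043), and without nattokinase replicate 2 (−0.0429) or 3 (−0.0307) or control replicate 1 (−0.0067), with a range of −0.04 to 0.10 over left-out libraries. The cause was not tested. Counts over all genes were 612 higher and 354 lower. They were 221 and 109 without a filter, 12 and 5 against a 1.5-fold change, and 330 to 726 and 193 to 481 with a library left out. Of the listed pathway genes 13 rose and 3 fell. These were 5 and 1 without a filter, 8 and 3 with protein-coding totals, 0 and 0 against a 1.5-fold change, and 8 to 12 and 2 to 3 with a library left out. The difference in the Ccl7 to Ccl2 ratio was 0.024 to 0.044 with a library left out. Same-numbered libraries did not deviate together (correlations −0.089 to −0.044), and with the replicate number as a block 439 genes rose and 249 fell, with Ccl2, Ccl7 and Cx3cl1 called (Cx3cl1 adjusted p = 0.0065). The block ended the calls of Ifngr2 (adjusted p = 0.107), Mapkapk2 (0.103), Hnrnpd (0.108) and Adam17 (0.104) among the listed genes named. The precision for Ccl20, Cxcl16, Cxcl5 and Cxcl2 is limited by their counts, with at most 37 reads per library.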

Other observations

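Some genes under the filter were separated between the groups, chosen after their values were seen. Il1a, an interleukin-1 gene that can induce chemokines, had 3, 5 and 3 reads in nattokinase libraries and 0 reads in each control library. Mmp9, a gelatinase gene, had 15, 31 and 13 reads in nattokinase libraries, against 4, 5 and 7 reads in control libraries. Cxcl15, which in mouse lies within the Cxcl1 cluster, had 2, 10 and 13 reads in nattokinase libraries, against 24, 18 and 21 reads in control libraries. Ackr3, a scavenging receptor of Cxcl12, had 32, 17 and 25 reads in nattokinase libraries, against 42, 31 and 34 reads in control libraries (0.409 and 0.668 FPKM on average). None of these was tested in the main comparison. Among genes with a read in any library, 9.39% were separated upwards and 7.96% downwards. These shares include the tested genes, of which 17.4% were separated upwards and 11.4% downwards. They are therefore not the shares among genes under the filter.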
